A study of Mus musculus with 6 samples.

Results

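The genes described here are the ligands and receptors of axon guidance, namely the semaphorins, plexins, neuropilins, ephrins, Eph receptors, Slits and Robos. Members are all genes whose mouse symbol matches the naming pattern of these families. Of the mouse symbols in RefSeq, 59 match, and 56 of them were listed in at least 1 library, among 17909 genes listed in all. They are 31 ligands and 25 receptors; Epha5, Epha6 and Epha10 were listed in no library and are not analysed here. Of the 56, 42 had enough reads to be tested.

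RNA was sequenced from primary hepatic stellate cells, the vitamin A-storing pericytes of the liver sinusoid, of male C57BL/6 mice aged 24 weeks. The HAS2_Tg group (replicates 4, 5 and 6) came from transgenic mice that carry human HAS2 under the alpha smooth muscle actin (ASMA) promoter. The Has2_KO group (replicates 7, 8 and 9) came from Has2 f/f Lrat-cre mice, in which Cre acts in cells that express Lrat. HAS2 makes hyaluronan, a polysaccharide of the extracellular matrix. Livers were perfused with collagenase and pronase, stellate cells were taken from a Nycodenz gradient and Cd11b-positive cells removed with beads; the cells attached for 4 h and stayed in culture with 10% serum for another 14 h, to day 1. Without wild-type libraries, a difference between the groups cannot be assigned to one genotype. The labels do not say whether each library came from a separate mouse, so p-values measure the spread between these libraries, which may be technical.

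Semaphorins are secreted or membrane-bound proteins that signal through plexins, and most of the secreted class 3 semaphorins need a neuropilin as the binding partner of the plexin. Ephrins are membrane-bound ligands of the Eph receptor tyrosine kinases, and signal runs both ways between the touching cells. Slits are large secreted proteins that bind Robo receptors. These systems were described first in growing axons, where they turn growth cones away or towards a target through the actin cytoskeleton. Outside the nervous system they act in blood vessel patterning, cell migration and contact between cells.

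The checks on the libraries come first. Has2 reads numbered 847, 889 and 835 in HAS2_Tg, against 1 in every Has2_KO library. These counts are for the mouse gene, while the transgene is human HAS2. They are no direct measure of the transgene, and its part in them was not tested. Total expected counts were 11961726 to 12231327 in the transgenic libraries and 12364822 to 12423220 in the knockout libraries. Stellate cell markers were present in all 6 libraries, with a summed level of 1.22% to 1.29% of counts in HAS2_Tg and 0.934% to 0.971% in Has2_KO, and 16 of 20 tested markers were higher in HAS2_Tg. Sinusoidal endothelial markers made up 0.0147% to 0.0164% of counts in HAS2_Tg and 0.158% to 0.168% in Has2_KO; 25 of 25 tested were lower in HAS2_Tg, and Emcn and Gpihbp1 were absent from every transgenic library. Kupffer cell and macrophage markers made up 0.00173% to 0.00188% in HAS2_Tg and 0.0743% to 0.0797% in Has2_KO, with 19 of 20 tested lower and Clec4f and Timd4 absent from every transgenic library. None of these endothelial or macrophage markers was absent from every knockout library. Hepatocyte markers (0.000291% to 0.000385% in HAS2_Tg, 0.0043% to 0.00559% in Has2_KO), cholangiocyte and mesothelial markers (0.000327% to 0.000368%, 0.00353% to 0.00386%) and lymphoid and neutrophil markers (0.000213% to 0.000276%, 0.000857% to 0.001%) were scarce and lower in HAS2_Tg as well. Portal fibroblast and vascular smooth muscle markers ran the other way, at 0.174% to 0.198% in HAS2_Tg and 0.0493% to 0.0522% in Has2_KO, with 7 of 11 tested higher and 3 lower. Any member lower in HAS2_Tg shares the direction of the endothelial and macrophage sums, and any higher member that of the stellate and smooth muscle sums. A shared direction therefore does not by itself link a member to a cell type. The part of other cells in the differences below was not tested. In bulk RNA, fewer cells of a type and less RNA per cell cannot be told apart.

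Values compared between groups are CPM, the count of a gene relative to its library size, with the sizes scaled by edgeR's TMM method, and log2 fold changes are HAS2_Tg minus Has2_KO. HAS2_Tg replicate 4 stood apart from replicates 5 and 6 along transcript length. Over 12081 genes, the log2 ratio of replicate 4 to the mean of replicates 5 and 6 had a Spearman correlation of -0.509 with transcript length, a description across genes within these libraries; the same comparison of Has2_KO replicate 7 with replicates 8 and 9 gave -0.093. The members are long, with a median transcript of 4729 bases against 2871 bases for those genes. Replicate 4 was the lowest of the 3 transgenic libraries for 26 of the 42 tested members. For Robo2, Sema5a, Sema6d, Sema3d and Plxna1 the values without replicate 4 are given beside the main ones. Sema6b, Sema6a, Nrp2 and Plxna2 also lay low in replicate 4. Without it their log2 fold changes were -2.10, -1.28, -2.86 and -2.48, and all were still called lower. Between the groups, length and log2 fold change had a Spearman correlation of -0.172 over all tested genes, and -0.071 without replicate 4.

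**Figure D1:**
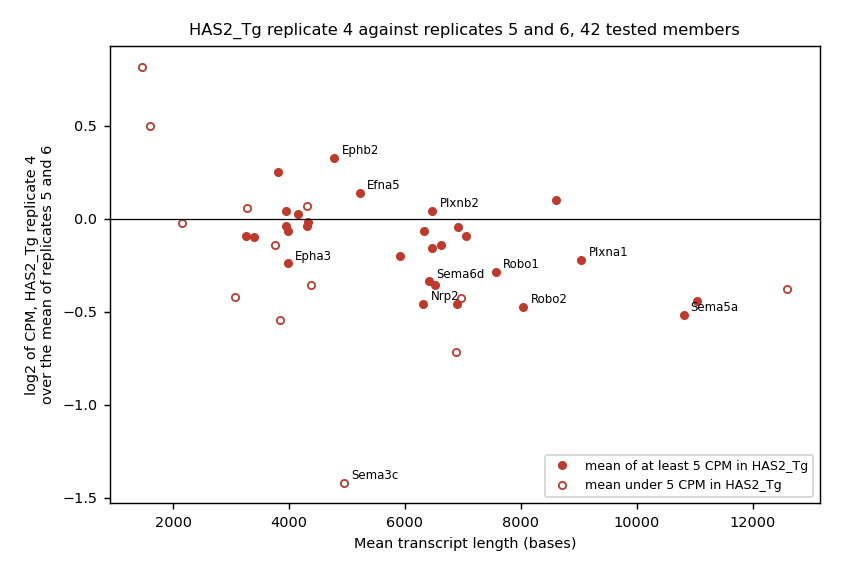
Each point is 1 of the 42 tested members. The x axis gives mean transcript length in bases, and the y axis the log2 ratio of CPM in HAS2_Tg replicate 4 to the mean of replicates 5 and 6; open points have a mean under 5 CPM in HAS2_Tg. The long transcripts of Robo2 (-0.47) and Sema5a (-0.52) lie below 0. Plxnb1 (0.10), with 8600 bases, is long and lies above 0, as do Ephb2 (0.33) and Efna5 (0.14).

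Among the tested members, 14 were higher and 15 lower in HAS2_Tg, with edgeR's quasi-likelihood test at an adjusted p under 0.05, against 20.2% higher and 20.5% lower among all 13014 genes tested. Called members were 29 of 42, where 40.7% of all tested genes were called. The median log2 fold change of the tested members was -0.01, and that of all tested genes -0.01. Called changes of at least 2-fold were 3 higher and 11 lower, beside 3.31% and 7.91% of all tested genes. Ligands split 7 higher and 9 lower of 21 tested, and receptors 7 higher and 6 lower of 21 tested. Scaling matters for the small changes: with total counts in place of TMM, the median of all genes shifted to -0.18, and the members split 10 higher and 17 lower. Sema3c, Efna1 and Sema4a passed the low-count filter through Has2_KO alone, and Epha1 through HAS2_Tg alone, so the direction of these 4 was partly set by it. The 14 members that the filter left out had at most 11 counts in any library; they are Sema3b, Sema3g, Sema4f, Sema5b, Sema7a, Plxnb3, Efna3, Efnb3, Epha8, Ephb1, Slit1, Slit2, Slit3 and Robo3.

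**Figure D2:**
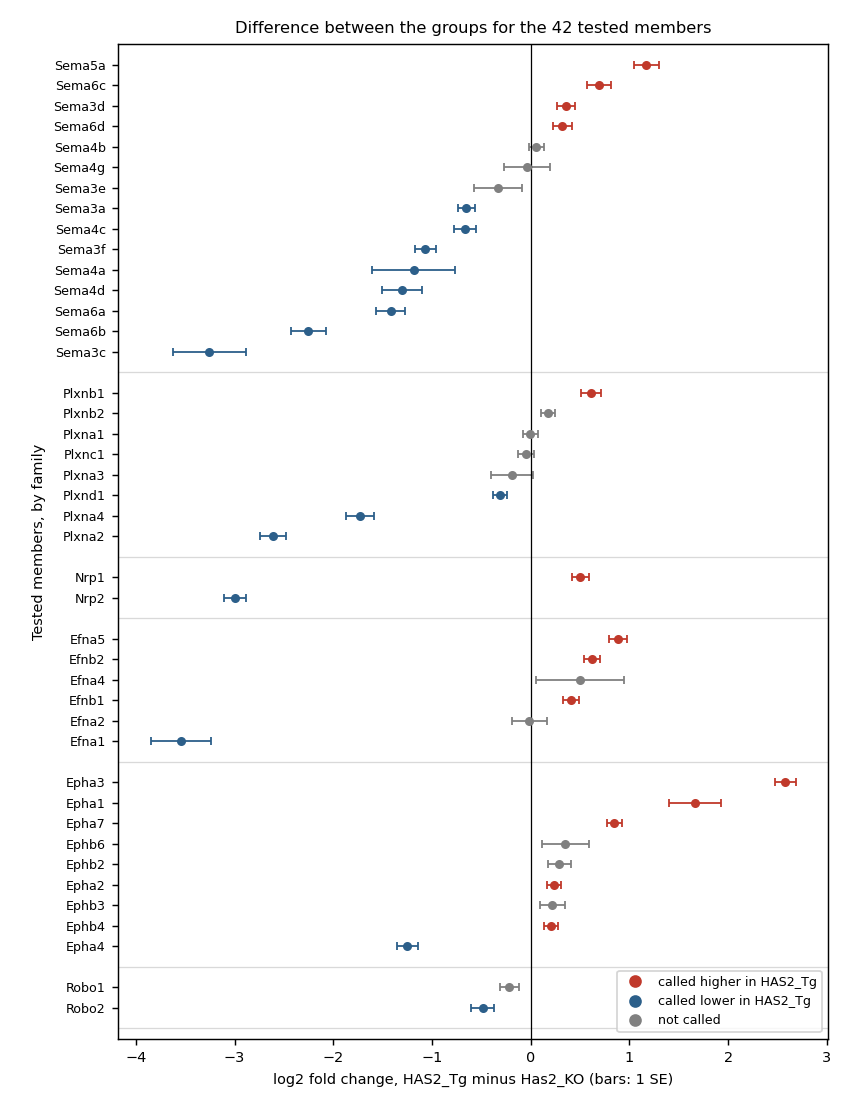
Points are the log2 fold changes of the 42 tested members, HAS2_Tg minus Has2_KO, with bars of 1 SE, grouped by family and coloured by call. The points run from -3.54 for Efna1 to 2.58 for Epha3, and 11 of the called members lie at or below -1 while 3 lie at or above 1.

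The most abundant member was a ligand, Sema6d, and the 5 that followed it were receptors. Levels between genes are compared in FPKM, the authors' value per length of transcript and per depth. FPKM carry no TMM scaling, so differences between groups run lower in FPKM than in CPM. Sema6d was the most abundant member in both groups, at 163 ± 23.2 FPKM in HAS2_Tg and 147 ± 1.35 FPKM in Has2_KO (SD, n = 3 each). The next members in HAS2_Tg were Plxna1 at 70.6 ± 7.0 FPKM in HAS2_Tg and 79.8 ± 1.57 FPKM in Has2_KO (SD, n = 3 each), Robo2 at 69.2 ± 13.9 FPKM in HAS2_Tg and 109 ± 2.86 FPKM in Has2_KO (SD, n = 3 each) and Plxnb2 at 67.8 ± 2.12 FPKM in HAS2_Tg and 67.8 ± 3.29 FPKM in Has2_KO (SD, n = 3 each). In HAS2_Tg these 3 receptors did not differ beyond the spread between libraries, while in Has2_KO Robo2 stood above Plxna1 and Plxna1 above Plxnb2. Plxnd1 and Ephb4 held the fifth and sixth places in both groups. Of 25 receptors, 10 had a mean of at least 10 FPKM in HAS2_Tg and 10 in Has2_KO. Of 31 ligands, 6 reached that level in HAS2_Tg and 4 in Has2_KO. At the other end, 16 members averaged under 0.2 FPKM in HAS2_Tg and 14 in Has2_KO, and all 3 Slits were among them. The order differed by 12 places or more for 4 members. Efna1 was number 40 in HAS2_Tg and number 23 in Has2_KO, and Nrp2 number 25 in HAS2_Tg and number 10 in Has2_KO. In the other direction, Epha1 was number 29 in HAS2_Tg and number 42 in Has2_KO, and Epha3 number 12 in HAS2_Tg and number 24 in Has2_KO.

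**Figure D3:**
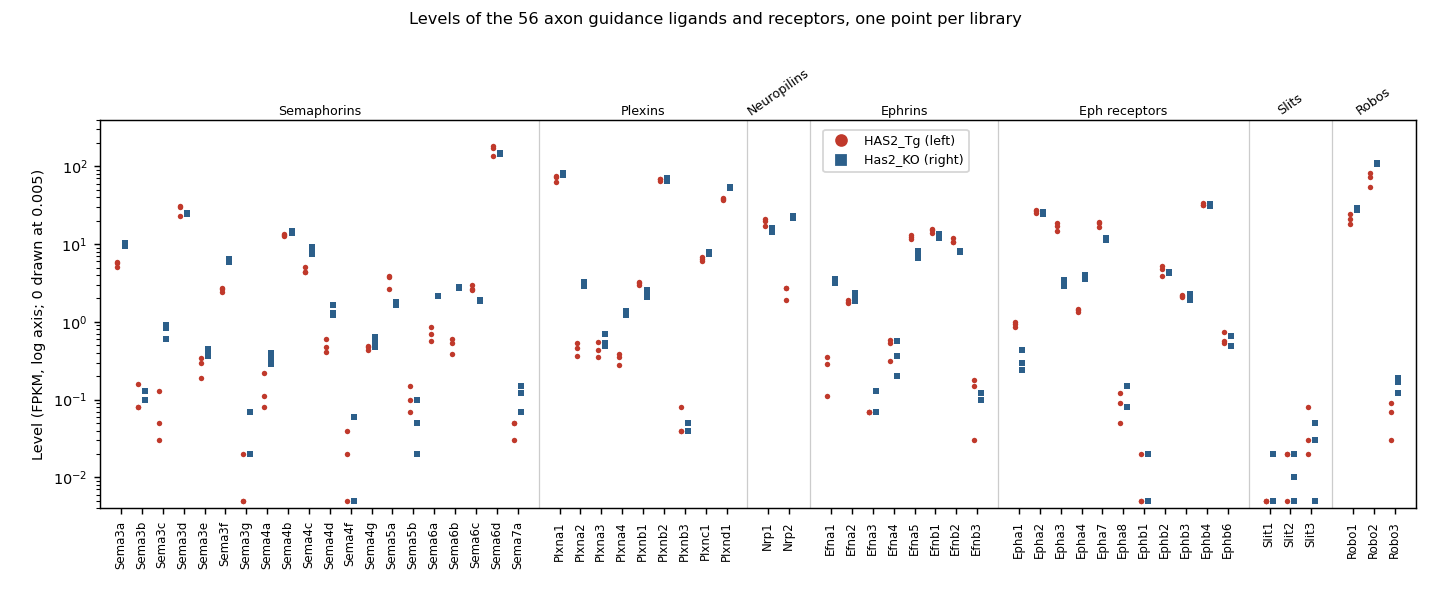
Levels of all 56 members in FPKM on a log axis, with 1 point per library, transgenic libraries on the left and knockout libraries on the right of each gene; a value of 0 is drawn at 0.005. Sema6d lies at the top in both groups (means of 163.2 and 146.8 FPKM), the Slits lie at the bottom, and the groups separate widely at Nrp2, Epha3 and Efna1.

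The neuropilins changed in opposite directions. Nrp2, which binds semaphorins such as Sema3f and the lymphatic growth factor VEGF-C, was 7.96-fold lower. It had 13.5, 18.6 and 18.6 CPM in the transgenic libraries, against 136, 139 and 129 CPM in the knockout libraries. All 3 transgenic libraries lay far below all 3 knockout libraries, and the call was far inside the threshold (edgeR log2 fold change -2.99, SE 0.11, adjusted p = 1.54e-11). Nrp1, the partner of Sema3a and a co-receptor of VEGF-A, went the other way and had 112, 124 and 133 CPM in the transgenic libraries, against 87.8, 80.8 and 90.8 CPM in the knockout libraries. The groups did not overlap, and the rise was small beside the fall of Nrp2 (edgeR log2 fold change 0.50, SE 0.08, adjusted p = 0.000199). Because both genes were read from the same library, their ratio does not depend on library scaling. Nrp1 was 8.91, 7.28 and 7.70 times Nrp2 in FPKM in the transgenic libraries, against 0.676, 0.616 and 0.733 times in the knockout libraries. Nrp2 thus made up 11.2% ± 1.02 of neuropilin FPKM in HAS2_Tg and 59.8% ± 2.08 in Has2_KO (SD, n = 3 each). The knockout libraries, where Nrp2 was high, are those with the higher endothelial (0.158% to 0.168% of counts) and macrophage (0.0743% to 0.0797%) marker sums. The same holds for every member lower in HAS2_Tg, and the part of those cells in the Nrp2 difference was not tested. RSEM's mean Nrp2 transcript length, which shifts with the mix of its 6 listed transcripts, was 6404, 6487 and 6377 bases in HAS2_Tg and 6221, 6267 and 6168 bases in Has2_KO, without overlap; which transcripts differed was not tested.

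The promoters of genes at the centre of these differences are shown next. Nrp2, Plxna2 and Epha3, 3 of the largest differences, are set beside Nrp1, which rose by less (log2 fold change 0.50). The sequences are from RefSeq (GRCm38.p6), 250 bases before to 50 bases after the start of transcription annotated there, each 5′ to 3′ on the strand of its gene. For Nrp2 and Epha3 that start is the outer end of the gene, while for Plxna2 it lies 38 bases and for Nrp1 482 bases further in. Capitals mark matches on either strand to 5 motifs. The first is GTGGGAA, bound by RBPJ of the Notch pathway. The second is TGANTCA, the AP-1 motif. GGAATG is the motif of TEAD factors, the partners of YAP. TATAAA is the TATA box. The last is the E-box CACGTG. The windows are chr1:62703067-62703366 (plus strand) for Nrp2, chr8:128358823-128359122 (plus strand) for Nrp1, chr1:194619579-194619878 (plus strand) for Plxna2 and chr16:63864126-63864425 (minus strand) for Epha3. The genes themselves span chr1:62703317-62818692, chr8:128358591-128505476, chr1:194619791-194816869 and chr16:63543532-63864175.
Nrp2: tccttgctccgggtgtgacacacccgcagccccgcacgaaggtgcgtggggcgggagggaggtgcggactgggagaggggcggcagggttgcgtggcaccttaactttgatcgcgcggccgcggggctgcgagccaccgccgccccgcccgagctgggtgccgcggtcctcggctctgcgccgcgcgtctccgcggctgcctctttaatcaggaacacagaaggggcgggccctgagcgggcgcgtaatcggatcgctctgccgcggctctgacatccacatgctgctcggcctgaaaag
Nrp1: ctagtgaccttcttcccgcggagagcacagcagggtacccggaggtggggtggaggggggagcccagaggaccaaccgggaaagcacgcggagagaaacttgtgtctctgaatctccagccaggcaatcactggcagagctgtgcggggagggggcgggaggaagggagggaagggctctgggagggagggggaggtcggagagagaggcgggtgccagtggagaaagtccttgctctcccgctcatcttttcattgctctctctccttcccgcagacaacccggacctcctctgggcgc
Plxna2: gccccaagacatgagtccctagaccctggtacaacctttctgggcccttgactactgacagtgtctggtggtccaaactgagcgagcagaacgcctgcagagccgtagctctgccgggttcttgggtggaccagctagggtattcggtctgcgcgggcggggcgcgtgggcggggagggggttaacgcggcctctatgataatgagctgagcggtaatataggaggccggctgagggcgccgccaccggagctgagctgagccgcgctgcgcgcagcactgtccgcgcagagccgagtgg
Epha3: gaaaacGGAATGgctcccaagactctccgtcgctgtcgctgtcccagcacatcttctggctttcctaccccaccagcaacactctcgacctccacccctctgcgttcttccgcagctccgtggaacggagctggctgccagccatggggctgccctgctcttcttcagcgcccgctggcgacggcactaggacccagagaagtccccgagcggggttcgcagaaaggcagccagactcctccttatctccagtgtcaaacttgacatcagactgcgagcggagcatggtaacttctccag
The only match was 1 TEAD motif in the Epha3 window, and 14.7% of all 32851 promoters in the table hold that motif. The 4 windows were rich in G and C, with 70.7% for Nrp2, 64.7% for Plxna2, 60.7% for Epha3 and 64.0% for Nrp1, against a median of 52.7% over all promoters. The 65 promoters of 49 members in the table had a median of 64.0%. Of these 65 promoters, 2 (3.08%) held a TATA box, 3 (4.62%) an RBPJ motif and 3 (4.62%) an AP-1 motif. A TEAD motif was in 8 (12.3%) and the E-box in 5 (7.69%). Among all promoters the shares were 13.6% for the TATA box, 6.38% for RBPJ, 7.81% for AP-1, 14.7% for TEAD and 7.15% for the E-box. A match is a run of letters and does not show a site in use.

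Among the plexins, the abundant receptors differed little while the scarcer Plxna2 and Plxna4 fell. Plxna2, a receptor of class 6 semaphorins and of neuropilin complexes, had 4.31, 5.32 and 6.38 CPM in the transgenic libraries, against 34.0, 33.6 and 30.5 CPM in the knockout libraries. Every transgenic library was below every knockout library (edgeR log2 fold change -2.61, SE 0.13, adjusted p = 4.63e-10), a 6.11-fold difference. Plxna4, its close relative, had 3.86, 4.71 and 5.33 CPM in the transgenic libraries, against 14.8, 16.7 and 14.7 CPM in the knockout libraries (edgeR log2 fold change -1.73, SE 0.14, adjusted p = 1.4e-07). Plxna1, the main A-type plexin here, had 619, 704 and 739 CPM in the transgenic libraries, against 673, 701 and 692 CPM in the knockout libraries, and the groups overlapped (edgeR log2 fold change -0.00, SE 0.08, adjusted p = 0.986); without replicate 4 the log2 fold change was 0.06. Plxna1 was 174, 160.3 and 143 times Plxna2 in FPKM in the transgenic libraries, and 24.2, 25.5 and 27.7 times in the knockout libraries. Plxna3 was low throughout, at 0.35 to 0.55 FPKM in HAS2_Tg and 0.49 to 0.69 FPKM in Has2_KO.

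The B, C and D plexins changed by less than a factor of 2 in either direction. Plxnb1, a receptor of Sema4d, had 30.5, 28.8 and 28.1 CPM in the transgenic libraries, against 19.0, 17.1 and 21.0 CPM in the knockout libraries (edgeR log2 fold change 0.61, SE 0.10, adjusted p = 0.000164). Plxnb2, which binds class 4 semaphorins, had 481, 447 and 488 CPM in the transgenic libraries, against 404, 441 and 409 CPM in the knockout libraries and did not pass (edgeR log2 fold change 0.17, SE 0.07, adjusted p = 0.0725). Plxnd1, the receptor that Sema3e binds without a neuropilin and that is best known from vessels, had 277, 285 and 288 CPM in the transgenic libraries, against 343, 361 and 349 CPM in the knockout libraries (edgeR log2 fold change -0.31, SE 0.07, adjusted p = 0.00242). Its knockout libraries were all above its transgenic ones. Plxnc1, the receptor of Sema7a, had 47.3, 51.4 and 49.5 CPM in the transgenic libraries, against 52.9, 49.8 and 50.4 CPM in the knockout libraries, with overlapping groups (edgeR log2 fold change -0.05, SE 0.08, adjusted p = 0.652). Plxnc1 passed with total counts (-0.22, edgeR adjusted p = 0.0346), in step with the shift of all genes under that scaling. In all, 1 plexin rose and 3 fell of 8 tested, beside 20.2% higher and 20.5% lower among all tested genes. Plxnb3 had too few reads.

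Of 7 secreted class 3 semaphorins 5 were tested, and 3 fell while Sema3d rose. Among all tested genes 20.5% fell and 20.2% rose. Sema3d was the most abundant of them, and had 166, 212 and 214 CPM in the transgenic libraries, against 152, 153 and 156 CPM in the knockout libraries. It passed as higher (edgeR log2 fold change 0.36, SE 0.09, adjusted p = 0.00608), and at 0.47 without replicate 4, but not with total counts (0.19, edgeR adjusted p = 0.121). Sema3a, the classic growth cone collapsing factor, had 35.9, 39.5 and 40.7 CPM in the transgenic libraries, against 63.6, 58.8 and 59.9 CPM in the knockout libraries, without overlap (edgeR log2 fold change -0.65, SE 0.08, adjusted p = 1.48e-05). Sema3f, the ligand for which Nrp2 is best known, had 8.97, 9.68 and 9.53 CPM in the transgenic libraries, against 19.2, 19.1 and 20.8 CPM in the knockout libraries, and fell with its receptor (edgeR log2 fold change -1.07, SE 0.11, adjusted p = 1.21e-06). Sema3c was scarce in both groups, with 2, 8 and 3 counts in the transgenic libraries, against 57, 38 and 52 counts in the knockout libraries (edgeR log2 fold change -3.25, SE 0.37, adjusted p = 5e-06). The value was -4.01 without HAS2_Tg replicate 5, the library with 8 counts. Sema3c passed the low-count filter through Has2_KO alone, so its direction was partly set by it. Sema3d was 4.57, 5.32 and 5.20 times Sema3a in FPKM in the transgenic libraries, against 2.37, 2.61 and 2.58 times in the knockout libraries. Sema3e, at 0.19 to 0.34 FPKM in HAS2_Tg and 0.36 to 0.45 FPKM in Has2_KO, was not called.

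The membrane-bound semaphorins of class 4 were lower or not called. Sema4b, the most abundant of them, had 57.0, 56.5 and 54.6 CPM in the transgenic libraries, against 55.7, 53.8 and 52.3 CPM in the knockout libraries, with overlapping groups (edgeR log2 fold change 0.06, SE 0.08, adjusted p = 0.59). Sema4c, a ligand of Plxnb2, had 21.2, 17.4 and 18.2 CPM in the transgenic libraries, against 32.6, 26.5 and 31.0 CPM in the knockout libraries and fell (edgeR log2 fold change -0.67, SE 0.11, adjusted p = 0.000181). Sema4d, known from lymphocytes and from the activation of Plxnb1, had 1.97, 2.79 and 2.27 CPM in the transgenic libraries, against 5.40, 6.90 and 5.11 CPM in the knockout libraries (edgeR log2 fold change -1.30, SE 0.21, adjusted p = 0.000123). Sema4d thus fell where its receptor Plxnb1 rose, and both were low in FPKM, at 0.50 FPKM in HAS2_Tg and 1.40 FPKM in Has2_KO for Sema4d, and 3.14 FPKM in HAS2_Tg and 2.32 FPKM in Has2_KO for Plxnb1. Sema4a, with 4, 8 and 3 counts in HAS2_Tg and 16, 13 and 11 in Has2_KO, passed narrowly (edgeR log2 fold change -1.18, SE 0.42, adjusted p = 0.0368). Sema4g was not called (-0.04, SE 0.23). Leaving out any single library other than HAS2_Tg replicate 5 ended the Sema4a call, with edgeR adjusted p from 0.0193 to 0.135 over the 6 libraries. Macrophage markers, which fell in the same libraries as Sema4a and Sema4d, were 0.00173% to 0.00188% of counts in HAS2_Tg. Every member lower in HAS2_Tg shares that direction, and the part of macrophages was not tested.

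Class 5 and class 6 semaphorins split. Sema5a, a transmembrane protein with thrombospondin repeats, had 31.1, 45.1 and 44.1 CPM in the transgenic libraries, against 17.8, 17.1 and 18.5 CPM in the knockout libraries. Each transgenic library lay above each knockout library (edgeR log2 fold change 1.17, SE 0.13, adjusted p = 4.64e-06), and the value was 1.32 without replicate 4. Sema6d, the dominant ligand and a partner of Plxna1, had 958, 1153 and 1265 CPM in the transgenic libraries, against 901, 889.8 and 909 CPM in the knockout libraries. The transgenic libraries were above the knockout libraries by a small margin (edgeR log2 fold change 0.32, SE 0.09, adjusted p = 0.0131), and at 0.42 without replicate 4. That call ended without Has2_KO replicate 7 (edgeR adjusted p = 0.0516) or replicate 8 (0.0549) and with total counts (0.15, 0.21). The share of Sema6d in all semaphorin FPKM, which library scaling does not touch, was 70.7%, 71.6% and 73.5% in the transgenic libraries, against 65.6%, 66.2% and 66.1% in the knockout libraries. That share also moves with the other semaphorins and does not show a rise of Sema6d itself. Its FPKM overlapped between the groups, at 137, 170 and 182 in HAS2_Tg and 147, 145 and 148 in Has2_KO.

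Its relatives Sema6a and Sema6b fell, and Sema6c rose. Sema6a, a ligand of Plxna2 and Plxna4, had 4.22, 6.37 and 5.24 CPM in the transgenic libraries, against 14.1, 14.0 and 14.3 CPM in the knockout libraries (edgeR log2 fold change -1.42, SE 0.14, adjusted p = 1.55e-06). Sema6a and both of these receptors were called lower in HAS2_Tg, as were 20.5% of all tested genes. Sema6b, which binds A-type plexins as well, had 1.61, 2.18 and 2.53 CPM in the transgenic libraries, against 10.3, 10.2 and 9.92 CPM in the knockout libraries (edgeR log2 fold change -2.25, SE 0.18, adjusted p = 8.51e-08). Sema6c had 11.2, 11.9 and 11.5 CPM in the transgenic libraries, against 7.07, 7.28 and 7.17 CPM in the knockout libraries (edgeR log2 fold change 0.69, SE 0.12, adjusted p = 0.000319), with no overlap. Over the whole family, 4 semaphorins rose and 8 fell of 15 tested, beside 20.2% higher and 20.5% lower among all tested genes. Of those 8, Sema3c and Sema4a passed the low-count filter through Has2_KO alone, so their direction was partly set by it. The summed semaphorin level was 226.6 ± 28.5 FPKM in HAS2_Tg and 222.6 ± 2.68 FPKM in Has2_KO (SD, n = 3 each).

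Eph receptors of the A class carried the largest rise among the members. Epha3 had 64.0, 71.3 and 79.7 CPM in the transgenic libraries, against 13.2, 11.1 and 11.8 CPM in the knockout libraries. Its mean was 5.97-fold higher in HAS2_Tg, with no overlap (edgeR log2 fold change 2.58, SE 0.11, adjusted p = 7.07e-11). Epha7 rose as well, with 122, 132 and 138 CPM in the transgenic libraries, against 71.3, 74.5 and 71.9 CPM in the knockout libraries (edgeR log2 fold change 0.85, SE 0.08, adjusted p = 3.65e-07). Epha4, a receptor that binds ephrins of both classes, went down, with 9.33, 9.59 and 9.96 CPM in the transgenic libraries, against 24.1, 23.1 and 21.5 CPM in the knockout libraries (edgeR log2 fold change -1.25, SE 0.10, adjusted p = 1.7e-07). Epha3 was 10.95, 11.85 and 12.75 times Epha4 in FPKM in the transgenic libraries, against 0.870, 0.763 and 0.874 times in the knockout libraries. Epha2, a widely expressed receptor of ephrin-A1, had 109, 113 and 112 CPM in the transgenic libraries, against 93.0, 98.2 and 91.7 CPM in the knockout libraries, a small difference (edgeR log2 fold change 0.24, SE 0.07, adjusted p = 0.0152). The Epha2 call ended without Has2_KO replicate 7 (edgeR adjusted p = 0.073) or replicate 9 (0.0828) and with total counts (0.07, 0.486). Epha1 had 37, 39 and 34 counts in HAS2_Tg and 12, 10 and 18 counts in Has2_KO (edgeR log2 fold change 1.66, SE 0.26, adjusted p = 0.000127). Its exons share 236 bases with Zyx on the other strand, and Zyx had 20808 counts over the transgenic and 12243 over the knockout libraries. The sources used here do not say whether counting used strand, so reads of Epha1 and Zyx cannot be told apart there.

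B-class Eph receptors differed little. Ephb4, the receptor of ephrin-B2 known from veins, was the most abundant Eph receptor, and had 149.5, 144 and 158 CPM in the transgenic libraries, against 125, 131 and 135 CPM in the knockout libraries (edgeR log2 fold change 0.21, SE 0.07, adjusted p = 0.036). That call ended without HAS2_Tg replicate 6 (edgeR adjusted p = 0.0783), without Has2_KO replicate 7 (0.166), 8 (0.103) or 9 (0.0771), and with total counts (0.03, 0.74). Ephb2, Ephb3 and Ephb6 were not called, with log2 fold changes of 0.29, 0.22 and 0.35. Ephb2 passed when HAS2_Tg replicate 5 was left out (0.42, edgeR adjusted p = 0.00988), and with no low-count filter (0.29, 0.0419); without replicate 4 the value was 0.17 (0.23). Over the family 5 receptors rose and 1 fell of 9 tested, beside 20.2% higher and 20.5% lower among all tested genes. Of those 5, Epha1 passed the low-count filter through HAS2_Tg alone, so its direction was partly set by it. The Epha2 call held in 8 of 15 alternative settings and the Ephb4 call in 5. The summed level of the Eph receptors was 103.8 ± 4.38 FPKM in HAS2_Tg and 82.8 ± 1.57 FPKM in Has2_KO (SD, n = 3 each).

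The 3 most abundant ephrins rose and Efna1 fell, of 6 tested. Among all tested genes 20.2% rose and 20.5% fell. Efna5, an ephrin anchored by a lipid and a ligand of Epha3 and Epha7, had 73.6, 67.8 and 66.1 CPM in the transgenic libraries, against 33.3, 40.4 and 38.6 CPM in the knockout libraries (edgeR log2 fold change 0.88, SE 0.09, adjusted p = 1.46e-06). Efna5 and both of those receptors were called higher in HAS2_Tg, as were 20.2% of all tested genes. Epha4, which binds Efna5 too, was lower. The transmembrane ephrins followed with smaller differences, Efnb2 with 50.3, 54.1 and 49.5 CPM in the transgenic libraries, against 33.8, 33.5 and 32.9 CPM in the knockout libraries (edgeR log2 fold change 0.62, SE 0.08, adjusted p = 1.81e-05). Efnb1 had 49.4, 53.0 and 52.6 CPM in the transgenic libraries, against 38.9, 36.5 and 41.4 CPM in the knockout libraries (edgeR log2 fold change 0.41, SE 0.08, adjusted p = 0.00103). In contrast Efna1, which is induced in endothelium by inflammatory signals and binds Epha2, had 6, 5 and 2 counts in the transgenic libraries, against 64, 59 and 57 in the knockout libraries (edgeR log2 fold change -3.54, SE 0.31, adjusted p = 2.4e-07). It made up 0.606% ± 0.299 of ephrin FPKM in HAS2_Tg and 9.63% ± 0.796 in Has2_KO (SD, n = 3 each). Endothelial markers fell in the same libraries, to 0.0147% to 0.0164% of counts, as they did beside every lower member. Their part in the Efna1 difference was not tested. Efna1 also passed the low-count filter through Has2_KO alone, so its direction was partly set by it. RSEM's mean length for Efna1 was 1447 bases in each transgenic library and 1483 bases in each knockout library, from 2 listed transcripts and few reads. Efna2 and Efna4 were not called, and Efna3 and Efnb3 had too few reads.

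**Figure D4:**
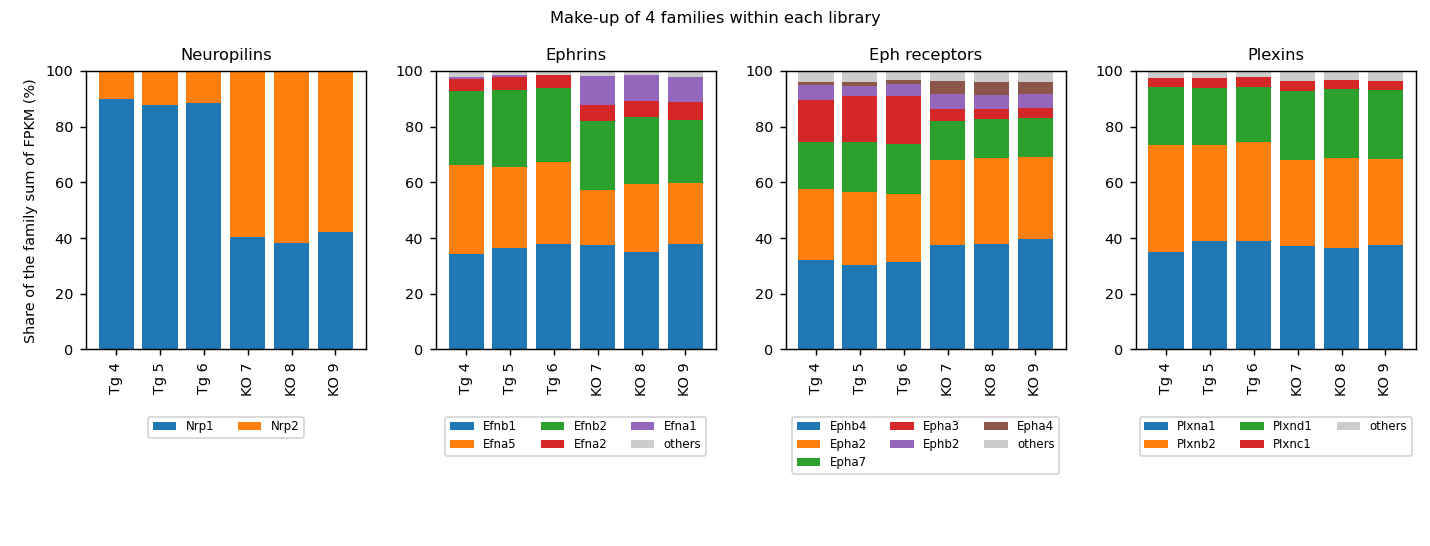
Bars show the share of each member in its family's summed FPKM, in percent, for the neuropilins, ephrins, Eph receptors and plexins, with the 3 transgenic libraries on the left and the 3 knockout libraries on the right; members under 3% in every library are pooled as others. Nrp2 makes up 11.2% in HAS2_Tg and 59.8% in Has2_KO on average and Epha3 16.2% and 3.84%, while Plxna1 holds 37.6% and 37.0%.

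Slits were nearly absent, while 2 of their 3 receptors were abundant. No Slit exceeded 5 counts in any library, and Slit1 was listed in 1 of the 6 libraries only, at 1 count. Robo2, the most abundant Robo, had 475, 613 and 707 CPM in the transgenic libraries, against 851, 850.1 and 816 CPM in the knockout libraries. The knockout libraries were all higher, and the transgenic libraries were widely spread (edgeR log2 fold change -0.49, SE 0.11, adjusted p = 0.00349). Without replicate 4 the difference was -0.35 (edgeR adjusted p = 0.000398), so the fall was smaller but still called. Robo1 had 151, 167 and 202 CPM in the transgenic libraries, against 197, 199 and 209 CPM in the knockout libraries, with overlapping groups, and did not pass (edgeR log2 fold change -0.22, SE 0.10, adjusted p = 0.0838). It passed without HAS2_Tg replicate 6 (-0.34, edgeR adjusted p = 0.00206) and with total counts (-0.39, 0.00358), while without replicate 4 it was -0.13 (0.176). Within libraries Robo2 was 2.95, 3.46 and 3.29 times Robo1 in FPKM in HAS2_Tg and 4.06, 4.02 and 3.68 times in Has2_KO. Robo3 had at most 11 counts in any library.

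Members near each other in the genome had both like and unlike calls. Efna1, Efna3 and Efna4 sit in a row on chromosome 3, with gaps of 32.9 kb and 10.5 kb, and of the 2 tested Efna1 fell while Efna4 was not called (0.50, SE 0.44). Sema4a, 810.5 kb from Efna1, was called lower as Efna1 was. Both passed the low-count filter through Has2_KO alone, so their shared direction was partly set by it. The Sema4a call also ended in most fits that left out a single library. On chromosome 5, Sema3d and Sema3a are 535.9 kb apart, and Sema3d rose where Sema3a fell. Sema3e follows after a further 421.8 kb and was not called. Robo1 and Robo2 are 844.5 kb apart on chromosome 16 and both had negative values, of which that of Robo2 passed. These distances are from the RefSeq gene table of GRCm38.

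Guidance genes outside these families were taken from 3 lists, of other guidance ligands and receptors, of co-receptors and alternative receptors of semaphorins, and of effectors inside the cell. Of the 99 listed in the files 80 were tested, 29 were higher and 19 lower in HAS2_Tg, with a median log2 fold change of 0.03, beside 20.2% and 20.5% of all genes. With total counts the split was 19 higher and 28 lower. Ntn1, the netrin that acts through Dcc, Neo1 and Unc5 receptors, had 605, 615 and 607 CPM in the transgenic libraries, against 398, 389.5 and 419.5 CPM in the knockout libraries (edgeR log2 fold change 0.60, SE 0.07, adjusted p = 7.01e-06). Ntn4 (0.66, SE 0.11), the netrin of basement membranes, and Rgma (0.58, SE 0.08), a ligand of Neo1, rose as well, and so did Bsg (0.45, SE 0.09), a membrane protein of the immunoglobulin family. Neo1, which binds netrins and Rgma, had 125, 136 and 146 CPM in the transgenic libraries, against 191, 196 and 201 CPM in the knockout libraries and fell (edgeR log2 fold change -0.53, SE 0.08, adjusted p = 5.72e-05). Robo4, the endothelial Robo and also on the endothelial marker list, had 1, 1 and 0 counts in HAS2_Tg and 282, 259 and 289 in Has2_KO. Flrt2 (-3.75, SE 0.28) and Flrt1 (-1.67, SE 0.41), membrane proteins that bind Unc5 receptors, were lower too, and Flrt2 was -4.40 without HAS2_Tg replicate 6. In this list 6 rose and 4 fell of 15 tested, and 3 of those 4 (Robo4, Flrt1 and Flrt2) passed the low-count filter through Has2_KO alone, so that their direction was partly set by it.

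Of the co-receptors of semaphorins 6 rose and 5 fell of 13 tested, beside 20.2% higher and 20.5% lower among all tested genes. Itga1 (1.40, SE 0.09) and Itgb1 (0.87, SE 0.08), the integrin subunits that together bind Sema7a, rose, although Sema7a itself had at most 6 counts in any library. Ptk7 (1.0, SE 0.08), a pseudokinase that can form complexes with plexins, and Lgals1 (0.60, SE 0.11), a galectin that binds neuropilins, rose too. Cd44, the hyaluronan receptor, fell by 1.11 (SE 0.08) on the log2 scale. Kdr (-7.16, SE 0.21), the VEGF receptor of endothelium, and Tyrobp (-6.03, SE 0.28) and Trem2 (-5.03, SE 0.32) of myeloid cells were lower, and Kdr and Tyrobp are also on the marker lists. These 3 of the 5 that fell passed the filter through Has2_KO alone.

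Of the effectors 17 rose and 10 fell of 52 tested, beside 20.2% higher and 20.5% lower among all tested genes. The split of the 3 lists together depended on scaling, as given above. Mical1 (0.92, SE 0.10), an enzyme that oxidises actin downstream of plexins, Rras (0.82, SE 0.09), a small GTPase that plexins switch off, and Rnd3 (0.74, SE 0.09) rose with Sipa1l1 (1.18, SE 0.08), an activator of GTP hydrolysis on Rap proteins. Arhgef15, an exchange factor of vascular cells that acts with Eph receptors, had 0, 1 and 1 counts in HAS2_Tg and 40, 28 and 37 counts in Has2_KO. Also lower were Vav3 (-3.75, SE 0.32), Tiam1 (-2.21, SE 0.33), an exchange factor of Rac, and Pak1 (-1.61, SE 0.14), a kinase downstream of Rac. Arhgef15, Vav3 and Tiam1 passed the filter through Has2_KO alone. Vav3 and Tiam1 averaged 0.380 and 0.529 CPM in HAS2_Tg and 5.27 and 2.49 CPM in Has2_KO. Endothelial and macrophage markers fell in the same libraries, and their part in these values was not tested.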

How the data were processed

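RNA-seq reads from 3 HAS2_Tg and 3 Has2_KO libraries were made on a BGISEQ-500, per the labels. The authors quantified genes with RSEM on mm10, per the submitters' processing notes; its version, the annotation and the use of strand are not stated in these sources. In the deposited tables each gene has an expected count and an FPKM, per the file headers. Depth was 11961726 to 12423220 expected counts per library.

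A gene missing from a table was set to 0 (12658 cells). Of 17909 identifiers 17857 were named through the RefSeq table. Expected counts were rounded; genes were kept with filterByExpr (minimum count 10), scaled with the TMM method, and all 13014 that passed were tested by edgeR's quasi-likelihood test, with Benjamini-Hochberg adjustment and a threshold of 0.05. CPM are counts divided by the TMM-scaled library size. FPKM, scaled by depth and transcript length, were used to compare levels between genes. Replicates of a group differed beyond sampling noise, with a chi-square per degree of freedom of 6.24 to 31.5 among HAS2_Tg libraries and 2.31 to 3.17 among Has2_KO libraries.

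Members are named with every library's value where a tested member averaged at least 5 FPKM in either group, or was among the 3 called members of smallest adjusted p of its family and direction; from each of the other lists the 4 called genes of smallest adjusted p in each direction are named. The members and lists were chosen with earlier results of these data known. The fit was also tried on simulated counts in which 200 genes were changed in random directions. Over 12960 genes it recovered 22.9% of genes changed 1.25-fold, 80.4% of those changed 1.5-fold and 98.1% of those changed 2-fold, and 6.21% of its calls were false. In the data 40.7% of tested genes were called, far more than were changed there. The simulation also held no trend with transcript length, so these rates may not carry over to this comparison. Alternatives were other scalings, filters, tests and thresholds, limma on log2(FPKM + 1) and log2(FPKM + 0.1), and leaving out each library. Fits ran in edgeR 4.0.16, with DESeq2 1.42.0 and limma 3.58.1 for alternatives, under R 4.3.3; tables and plots were made in Python 3.11.15 with matplotlib 3.10.9, numpy 2.4.6 and pandas 2.3.3.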

Additional observations from a re-analysis of the deposited data

How the results depend on the processing

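Of the 29 called members, 23 (9 higher and 14 lower in HAS2_Tg) kept their call in each of the 15 alternatives that gave them a value; Efnb1, Epha2, Ephb4, Sema3d, Sema4a and Sema6d did not. Efnb1 missed the threshold only with limma on log2(FPKM + 1) without a filter (0.22, adjusted p = 0.0561); Sema4a missed it with the DESeq2 Wald test too (adjusted p = 0.123). Members called higher numbered 14 with TMM, 10 with total counts and 9 in each of the 3 limma fits on FPKM, where depth alone sets the scale; members called lower numbered 15 with TMM, 17 with total counts and 14, 14 and 17 in the limma fits. Leaving out single libraries gave 11 to 15 higher and 14 to 15 lower. The number of all genes called in either direction moved as well. It was 5298 of 13014 tested with TMM and 6304 of 13014 with total counts. In the limma fits it was 5597 and 5514 of 11777, and 5962 of 17909 without a filter. With 1 library left out it was 4188 to 5624, of 13131 to 13243 tested. The 29 other guidance genes called higher became 19 with total counts and 17 in each limma fit, and 24 to 29 with 1 library left out.

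Signs turned only for members that were not called. With 1 library left out, Efna2 (-0.01) ran from -0.084 without Has2_KO replicate 8 to 0.078 without replicate 9, and was 0.014 without HAS2_Tg replicate 6. Plxna1 ran from -0.056 without HAS2_Tg replicate 6 to 0.065 without replicate 4 (0.0103 and 0.001 without Has2_KO replicates 8 and 9), and was 0.0011 without a filter. Sema4g ran from -0.14 without Has2_KO replicate 7 to 0.084 without replicate 9, and was 0.02 without HAS2_Tg replicate 5. With total counts Plxnb2 was -3e-04 and Sema4b -0.12; Sema4b was -0.11 in both limma fits on log2(FPKM + 1) and -0.12 on log2(FPKM + 0.1). The cause of these turns was not tested. No paired analysis was possible because the groups share no replicate number. Of the 14 members under the low-count filter, the smallest adjusted p from edgeR without a filter was 0.127 (Robo3), and Robo3 was called lower by limma without one (-0.13 on log2(FPKM + 1), adjusted p = 0.0467).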
